A study of Mus musculus with 6 samples.

Results

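The genes described here were 42 genes of the lysosome: 10 cathepsins, 11 glycosidases, 4 sulfatases, 7 enzymes or cofactors of lipid breakdown, 2 other soluble proteins and 8 proteins of the lysosomal membrane. They were picked by gene symbol as known lysosomal genes, at a time when earlier results of these data were known, and all 42 were found among the 27179 genes of the table. The study sequenced RNA from B16F10 cells, an established mouse melanoma line labelled as wild type. For 6 h, 3 cultures received ozonated olive oil (OZO) and 3 received olive oil (OLO), both at 0.01 %. The question behind that design was how melanoma cells respond to the ozonated oil. The values used here are 1 mean level per gene over all 6 libraries, so for a gene that differed between the oils the value lies between both groups and describes neither. The comparison of OZO with OLO was not analysed here. A line in culture has no surrounding tissue, and neither group was free of oil.

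Lysosomes are acidic organelles in which proteins, glycans, glycosaminoglycans and lipids from endocytosis and autophagy are broken down to units that the cell can use again. Most soluble hydrolases receive a mannose 6-phosphate tag in the Golgi and are carried to the lysosome by receptors for that tag, while heavily glycosylated membrane proteins such as LAMP1 and LAMP2 line the organelle. Many lysosomal genes carry an E-box in their promoters that is bound by TFEB, TFE3 and MITF, the last of which is also a master regulator of the melanocyte lineage. Pigment cells build melanosomes, organelles related to lysosomes, and several proteins of the list are found in both.

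Levels are given in CPM, the number of reads of a gene per 1000000 reads assigned to genes in its library. The deposited means are on the log2 scale, so their antilog is a geometric mean over the libraries, with a small constant added to each count. The geometric mean of the library sizes was 19641945 reads, and 1 CPM therefore stood for 19.6 reads in a library of that size. Reads were seen for 21154 genes. A gene with a long transcript collects more reads than a short one at the same number of molecules, so levels were also divided by the length of the longest annotated transcript, as CPM per kb. CPM values and their sums describe how reads were distributed, and molecule levels of different genes are compared per kb. The mean over all libraries carries no spread between cultures, and the errors given below are counting errors only. In bulk RNA, fewer cells that express a gene and less RNA per cell cannot be told apart.

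The cells carried the melanocyte markers, and markers of other lineages were low or at the limit of detection. The 6 melanocyte markers had mean levels between 109 CPM for Sox10 and 7052 CPM for Dct. The 5 macrophage markers, which matter here because macrophages are rich in lysosomal enzymes, were all below 1 CPM, from 0.0441 CPM for Adgre1 to 0.360 CPM for Csf1r. Of 4 fibroblast markers, 3 exceeded 1 CPM with Pdgfra highest at 3.28 CPM and Dcn lowest at 0.308 CPM. Of 3 endothelial markers, Pecam1 alone exceeded 1 CPM, at 1.21 CPM, and Kdr was lowest at 0.0435 CPM. Among 3 keratinocyte markers, Krt5 had no reads, and Krt14 and Krt10 had 1 read each over all libraries.

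All 42 lysosomal genes had reads. Their mean levels spanned from 0.397 CPM for Ctss to 1460 CPM for Ctsd, with a median of 85.0 CPM. Of the 42, 41 were at or above 1 CPM, 37 at or above 10 CPM and 20 at or above 100 CPM. Of all 21154 genes with reads, 11878, 8769 and 2463 reached these 3 limits. The mean levels of the 42 lysosomal genes summed to 8297 CPM. This sum was unevenly shared, since 6 genes (Ctsd, Lamp1, Ctsb, Psap, Lamp2 and Laptm4a) held 56.9% of it and the leading 10 held 71.4%. Per length, the median member reached 28.1 CPM per kb, against 1.87 CPM per kb for the 19227 genes with reads and a known length, and it stood at the 87.1 percentile of those genes. Before division by length, the median stood at the 86.2 percentile of all genes with reads, whose own median was 2.73 CPM.

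**Figure D1:**
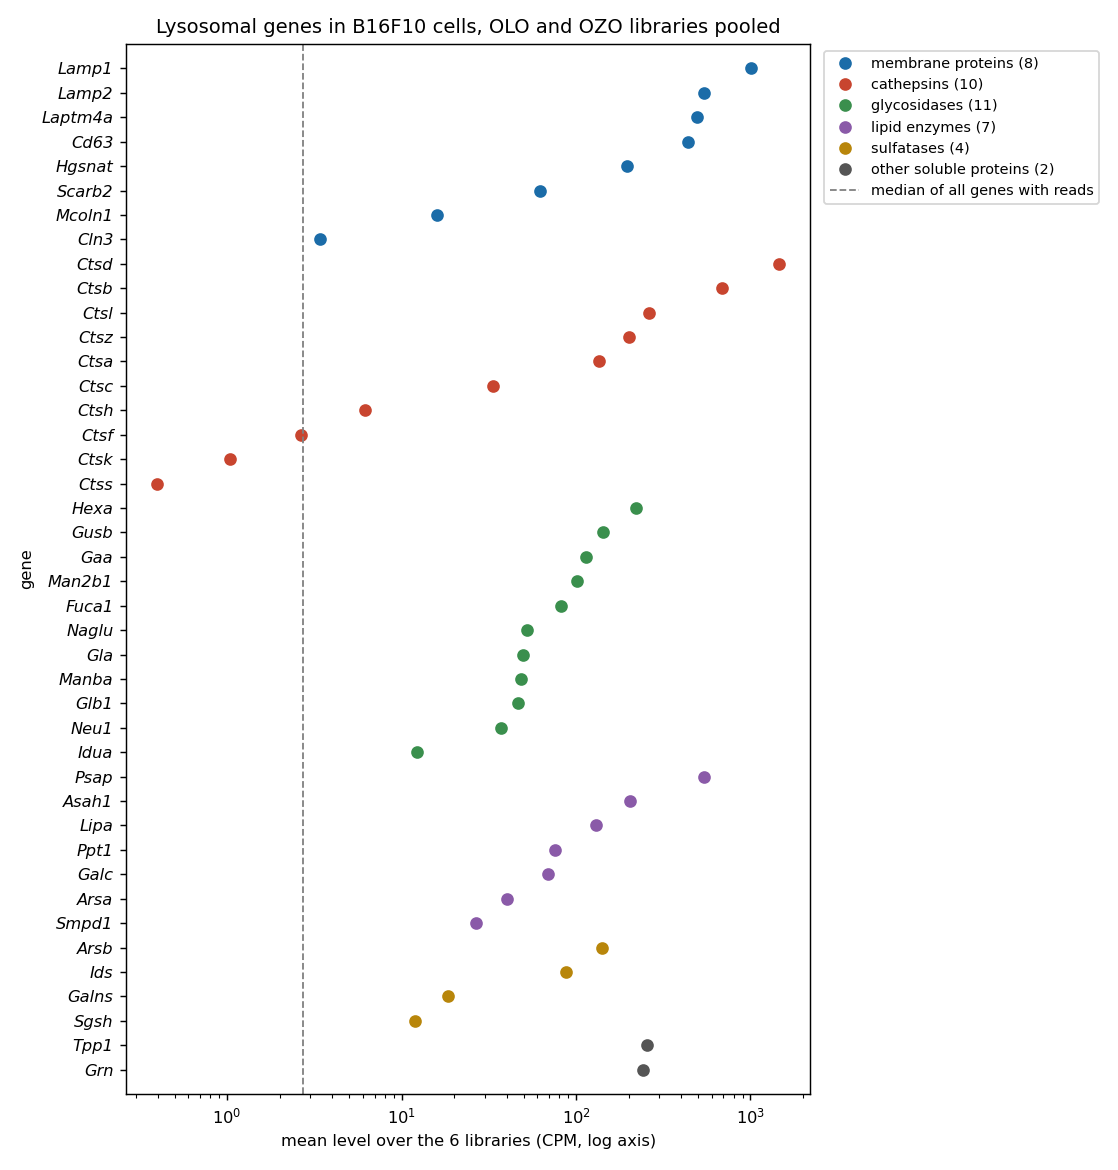
Mean level of each lysosomal gene over the 6 libraries (CPM, log axis, not divided by length), coloured by class and sorted within it, with the median of all genes with reads as a dashed line. The cathepsins span from 0.397 CPM (Ctss) to 1460 CPM (Ctsd) and the 11 glycosidases from 12.3 to 222 CPM.

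The classes differed in how high they stood and in how far their members spread. Per length, the class medians were 111 CPM per kb for the membrane proteins, 86.7 for the pair of other soluble proteins, 29.5 for the lipid enzymes, 23.8 for the cathepsins, 20.5 for the glycosidases and 12.4 for the sulfatases. Within the cathepsins the highest gene exceeded the lowest 2342-fold per length. The same ratio was 425 for the membrane proteins, 31.9 for the glycosidases, 18.5 for the lipid enzymes and 12.8 for the sulfatases. The cathepsins and the membrane proteins each held about the same part of the summed level, 33.6% and 33.2%, followed by the lipid enzymes with 13.1%, the glycosidases with 11.0%, the other soluble proteins with 6.02% and the sulfatases with 3.13%. The order of the class medians depended partly on how length was defined. The sulfatases were last under 5 definitions (longest transcript, median transcript, union of exons, longest coding transcript and longest coding sequence), and the membrane proteins were in first or second place. The cathepsins moved above the lipid enzymes and so did the glycosidases when the median transcript length was used. Without replicate values, none of these differences between classes could be set against a spread between cultures.

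**Figure D2:**
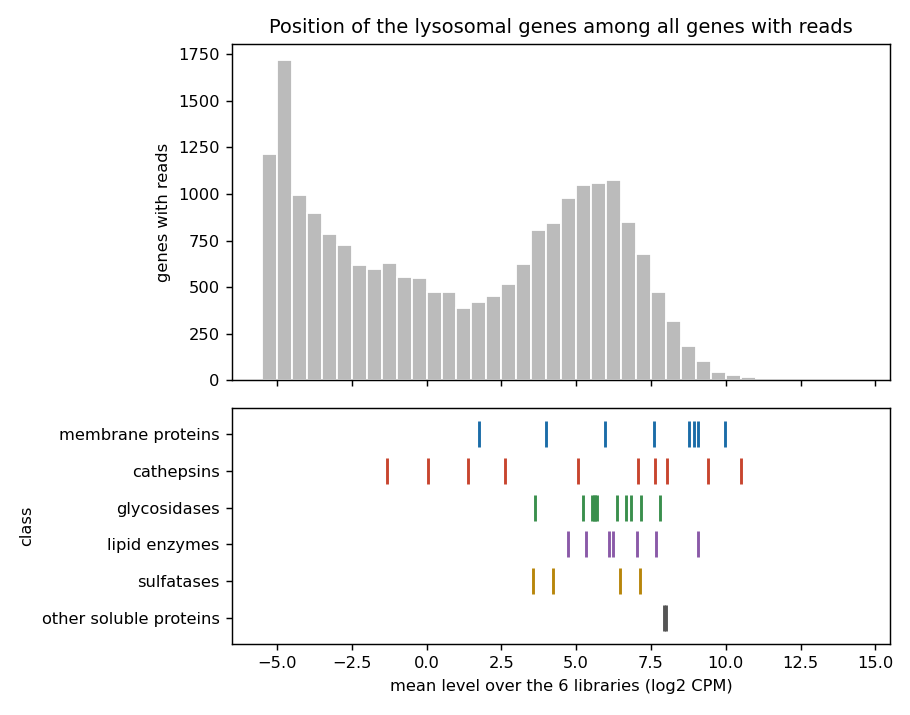
Upper panel, number of genes with reads by mean level (log2 CPM, bins 0.5 wide). Lower panel, each lysosomal gene as a tick on the same axis, by class. The glycosidase ticks span from 3.62 (Idua) to 7.79 (Hexa), while the cathepsin ticks span from -1.33 (Ctss) to 10.51 (Ctsd).

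Cathepsins are proteases of the lysosome, with aspartic, cysteine and serine enzymes among them. Ctsd, the aspartic protease cathepsin D (chr7:142375911-142388038 in mm10, minus strand), was the highest of all members at 1460 CPM, or 28671 reads per library of mean size. Its 686 CPM per kb placed it at the 99.8 percentile of genes. Ctsb (chr14:63122462-63145923) followed with 686 CPM and 145 CPM per kb. The longest transcript of this cysteine protease gene has 4743 bases, of which its coding sequence takes 1017, and its level per kb ranged from 113 to 675 over the 5 definitions of length. Ctsl, a cysteine endopeptidase that also trims other cathepsins, had 261 CPM (42.3 CPM per kb, range 40.2 to 374). Ctsz, a carboxypeptidase, had a lower CPM value of 201 but a shorter transcript, and so reached 140 CPM per kb. Per length, Ctsz was above Ctsl with the longest transcript as the measure, although Ctsl was above Ctsz in CPM. The order was reversed with the median transcript length (Ctsl 374, Ctsz 140 CPM per kb) and with the longest coding sequence (Ctsl 261, Ctsz 219 CPM per kb).

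Ctsa, the serine carboxypeptidase known as protective protein, reached 135 CPM (37.2 CPM per kb). Ctsa protects β-galactosidase (Glb1) and neuraminidase 1 (Neu1) in a complex. Its level per length was 2.24 times that of Glb1 and 3.62 times that of Neu1, with ranges of 1.85 to 11.4 and 2.47 to 13.6 over the definitions of length. Ctsc, a dipeptidyl peptidase that activates serine proteases of immune cells, stood at 33.6 CPM and 10.4 CPM per kb.

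The other 4 cathepsins were low. The aminopeptidase gene Ctsh had 6.15 CPM and Ctsf, a cysteine protease, had 2.64 CPM. Ctsk, the collagen-degrading protease of osteoclasts, had 1.05 CPM, which is 20.0 reads in a library of mean size. Ctss, a protease of antigen-presenting cells, had 0.397 CPM or 7.30 reads per library, and was the one member below 1 CPM. Over all 6 libraries the counting error alone was 9.12% of the level for Ctsk and 15.1% for Ctss, against 0.241% for Ctsd. Per length, Ctsk at 0.691 and Ctss at 0.293 CPM per kb were above the macrophage markers, which ranged from 0.0122 to 0.0765 CPM per kb. The fibroblast marker Pdgfra at 0.480 and the endothelial marker Pecam1 at 0.353 CPM per kb were above Ctss and below Ctsk. The part of other cells in these levels was not tested. Ctsk (chr3:95499256-95509362) and Ctss (chr3:95526786-95556403) are neighbours on the plus strand, 17423 bases apart, and were the lowest pair in CPM and under 4 of the 5 definitions of length. With the union of exons, Ctsk was above Cln3 and Ctsf. Per length, Ctsd was 2342 times as high as Ctss, with a range of 2124 to 3058.

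The membrane proteins included the second highest member. Lamp1 (chr8:13159161-13175338, plus strand), which encodes one of the main glycoproteins of the lysosomal membrane, had 1003 CPM and 450 CPM per kb. Lamp2 (chrX:38401357-38456454), whose product also serves chaperone-mediated autophagy, had 539 CPM and 150 CPM per kb. Lamp1 was 3.01 times as high as Lamp2 per length, and the factor varied between 1.91 and 6.64 with the definition of length. Laptm4a, a small transmembrane protein of late endosomes and lysosomes, had 494 CPM and, with its short transcript, 279 CPM per kb. Cd63, a tetraspanin of late endosomes, exosomes and melanosomes, had 439 CPM and 152 CPM per kb, with a range of 119 to 615 over the definitions of length. Its read number is also less certain than it appears, because a processed pseudogene, Cd63-ps, matches 812 bases of a Cd63 transcript at 98.5% identity, and reads could be placed in either. The same holds to a lesser degree for Fuca1, which matches the pseudogene Olfr75-ps1 over 491 bases at 91.1% identity.

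The remaining membrane proteins were transporters, receptors or enzymes rather than structural glycoproteins. Hgsnat, which acetylates heparan sulfate from the lysosomal membrane, had 196 CPM and 72.9 CPM per kb. Scarb2, the receptor that carries β-glucocerebrosidase to the lysosome, had 62.3 CPM and 13.3 CPM per kb. Mcoln1, the cation channel mucolipin 1, had 16.03 CPM and 5.55 CPM per kb, so that Lamp1 exceeded it 81.1-fold per length (range 27.3 to 177). Cln3, which is mutated in juvenile neuronal ceroid lipofuscinosis, was the lowest of the class at 3.39 CPM and 1.06 CPM per kb. The 2 soluble proteins outside the other classes are also known from ceroid lipofuscinoses. Tpp1, a tripeptidyl peptidase, had 256 CPM and 69.5 CPM per kb, and Grn, the precursor of the granulins, had 243 CPM and 104 CPM per kb.

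The glycosidases, which remove sugars from glycoproteins, glycolipids and glycosaminoglycans, were all above 10 CPM, and per length all 11 were above the lowest cathepsin and the lowest membrane protein. Hexa, the α subunit of β-hexosaminidase, had 222 CPM and 111 CPM per kb. It led the class except with the median transcript length, where Fuca1 and Gaa were above it. Gusb (β-glucuronidase) had 143 CPM, Gaa (acid α-glucosidase, which degrades glycogen) 114 CPM, Man2b1 (α-mannosidase) 102 CPM and Fuca1 (α-fucosidase) 82.3 CPM. Per length these stood at 53.2, 31.3, 26.6 and 32.6 CPM per kb. Naglu, Gla, Manba and Glb1 lay close together, between 46.6 and 52.4 CPM, and between 13.2 and 20.5 CPM per kb. Which of these 4 was highest could not be decided, since the ranges over the definitions of length overlapped. Neu1, the sialidase, had 37.2 CPM and 10.3 CPM per kb. Idua, the α-iduronidase of dermatan and heparan sulfate breakdown, was the lowest at 12.3 CPM and 3.48 CPM per kb.

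The sulfatases remove sulfate groups from glycosaminoglycans. Arsb, which acts on dermatan and chondroitin sulfate, had 142 CPM and 35.1 CPM per kb, and Ids, the iduronate sulfatase, had 87.7 CPM and 17.6 CPM per kb. Galns, which acts on keratan sulfate, had 18.6 CPM and 7.26 CPM per kb, and Sgsh, the heparan sulfamidase, had 11.9 CPM and 2.73 CPM per kb. Heparan sulfate is taken apart by enzymes from several classes, and their levels were far from equal. Per length they ran from Hgsnat at 72.9 through Gusb at 53.2, Naglu at 20.5, Ids at 17.6 and Idua at 3.48 to Sgsh at 2.73 CPM per kb. Hgsnat was 26.7 times as high as Sgsh, and between 12.6 and 68.9 times under the other definitions of length. Neighbouring steps such as Naglu and Ids, or Idua and Sgsh, had overlapping ranges.

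Among the genes of lipid breakdown, Psap had 543 CPM and 204 CPM per kb, the highest of the class except with the median transcript length, where Asah1 was above it. It encodes prosaposin, the precursor of small proteins that present sphingolipids to the hydrolases. Asah1, the acid ceramidase, had 204 CPM and 73.4 CPM per kb. Lipa, which hydrolyses cholesteryl esters and triglycerides, had 130 CPM, and Ppt1, a thioesterase that removes palmitate from proteins, had 75.8 CPM. Galc, which cleaves galactosylceramide, had 68.8 CPM and Arsa, the sulfatase acting on sulfatide, had 40.3 CPM. Smpd1, the acid sphingomyelinase, had 26.7 CPM and was the lowest per length except with the union of exons, where Galc was below it. Per length, Lipa, Ppt1, Galc, Arsa and Smpd1 reached 33.3, 29.5, 15.5, 11.5 and 11.1 CPM per kb. Smpd1 forms the ceramide that Asah1 then cleaves, and the level of Asah1 was 6.65 times that of Smpd1 per length, with a range of 6.65 to 20.4. Psap exceeded Smpd1 18.5-fold, with a narrower range of 18.1 to 24.8.

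**Figure D3:**
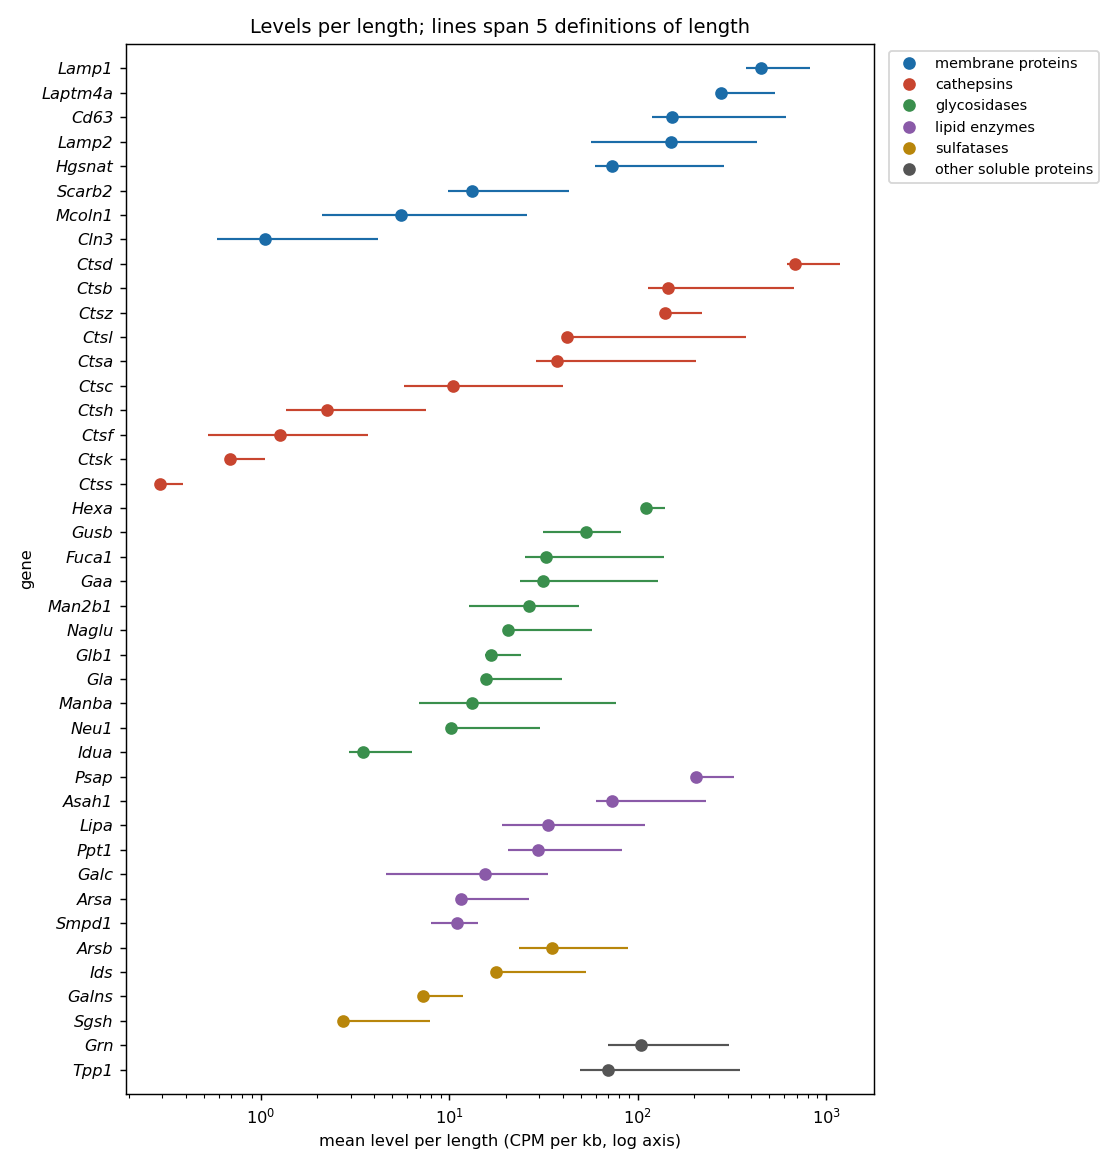
Level of each lysosomal gene divided by transcript length (CPM per kb, log axis), coloured by class. Points use the longest transcript and lines span 5 definitions of length, so they show the effect of that choice and not a replicate error. Ctsd at 686 and Lamp1 at 450 CPM per kb lead, and Ctss at 0.293 CPM per kb is last.

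The ends of the order did not depend on the definition of length, whereas the middle did. Under all 5 definitions Ctsd was first, Lamp1 second and Ctss last, and Ctsk, Cln3 and Ctsf were among the lowest 6. Between 6 and 10 of the leading 10 genes were shared with the order by longest transcript. Annotated exons also overlap, and 16 of the 42 genes share exon bases with another gene. The share was above 10% for 8 of them. The largest was in Arsb, where 39.9% of exon bases are covered by genes on the opposite strand, followed by Ctsd with 34.4% covered on the same strand by the gene model Gm49369. Ctsl, Sgsh, Arsa, Ctsa, Ctsb and Hexa overlap opposite-strand genes over 26.8%, 21.6%, 18.8%, 17.4%, 12.8% and 12.8% of their exon bases. Whether reads were counted by strand is not given in the sources used here, so reads from the opposite-strand overlaps cannot be assigned with certainty. Reads from same-strand overlaps could not be assigned by strand in any case. Besides Ctsd, such overlaps covered 6.09% of the exon bases of Ctsl (pseudogene Gm49230) and 5.49% of those of Glb1 (Tmppe).

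Genes that act on or before the lysosome were expressed too. All 20 other lysosomal genes of a second list had reads and exceeded 1 CPM, with CPM values from 5.47 for Cd68 to 247 for Npc2, a cholesterol carrier. Per length they ran from 1.69 CPM per kb for Ctso to 74.7 CPM per kb for Npc2. Their median per length was 18.8 CPM per kb, below the 28.1 CPM per kb of the 42 members. Sumf1, which activates the sulfatases, had 75.7 CPM. A further list of 6 genes held the mannose 6-phosphate route and Sort1, a sorting receptor that is not a receptor for the tag. The receptors for the tag, Igf2r and M6pr, had 364 and 278 CPM and Sort1 had 304 CPM. The genes of the enzymes that build the tag had 82.6 CPM (Gnptab), 12.8 CPM (Gnptg) and 10.4 CPM (Nagpa). Per length, M6pr had 93.3, Sort1 44.5 and Igf2r 40.9 CPM per kb, against 15.3 for Gnptab, 5.71 for Gnptg and 4.67 for Nagpa. Among inhibitors of cysteine cathepsins, Cst3 and Cstb had 44.6 and 47.4 CPM, Cst6 had 16.9 CPM and Cst7 had 0.0917 CPM. Per length, Cst3 was 0.659 times Cstb.

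Of the 4 transcription factors of the MiT family, Mitf had the highest level per length, with 59.0 CPM per kb against 8.38 for Tfe3, 2.26 for Tfeb and 0.0216 for Tfec. The corresponding values before division by length were 288, 53.0, 5.29 and 0.0732 CPM. Per length Mitf was 7.04 times as high as Tfe3 (range 3.77 to 8.20) and 26.1 times as high as Tfeb (range 14.5 to 55.2). These are RNA levels, and the activity of these proteins depends strongly on whether they are in the nucleus.

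The promoters of the members were searched for the letters of the E-box that this family binds. The windows were those of RefSeq on GRCm38.p6, from 250 bases before to 50 bases after a start site, and 37 of the 42 genes had one. Ctsb, Ctsh, Hgsnat, Asah1 and Galns had none and were left out. The motif TCACGTGA and its core CACGTG each read the same on both strands, and every long match also counts as a core match. A stretch is printed below for each member with at least 2 cores in its window, since these are the promoters with the densest matches. Lamp1 is shown over all its cores. The others lie in annotated exons of longer transcripts or of a neighbouring gene and are cut to 30 bases around 1 long match. Capitals mark the matches, and the last capitals of Ctsa begin its second long match.
Lamp1, chr8:13159079-13159160, plus strand: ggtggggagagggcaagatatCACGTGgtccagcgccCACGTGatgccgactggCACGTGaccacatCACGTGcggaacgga
Mcoln1, chr8:3500462-3500491, plus strand: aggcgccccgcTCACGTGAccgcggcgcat
Cln3, chr7:126583340-126583369, minus strand: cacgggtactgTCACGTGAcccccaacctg
Ctsd, chr7:142387908-142387937, minus strand: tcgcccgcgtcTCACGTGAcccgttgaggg
Ctsa, chr2:164833749-164833778, plus strand: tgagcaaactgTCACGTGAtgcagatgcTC
Gla, chrX:134601215-134601244, minus strand: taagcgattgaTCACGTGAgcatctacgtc

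The 82 bases before the Lamp1 start site held 4 cores, which began 61, 45, 28 and 15 bases before it, and none of these was the long form. Gla and Ctsa had 2 long matches each. In Gla their cores began 227 and 194 bases before the start site, and in Ctsa the first core began 12 bases before it and the other just after it. All distances are from RefSeq start sites. The GENCODE gene of Gla begins at chrX:134601125, between the matches and the RefSeq start site, so the distances for Gla depend on the start site used. Mcoln1, Cln3 and Ctsd had 1 long match and 1 further core each. The core of the long match began 98 bases before the start site in Ctsd and 45 bases before it in Mcoln1.

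The long motif was present in 5 of 37 member windows (13.5%), against 304 of 27025 genes with a window (1.12%) and 215 of the 9373 genes with a window and at least 1 CPM (2.29%). In the last 150 bases of the window it was present in 3 of 37 members (8.11%) and in 0.847% of all genes with a window, and the matches of Gla, the one glycosidase with it, and Cln3 then fell away. The core was present in 13 of 37 (35.1%), adding Lamp1, Ctsf, Ctsl, Gaa, Glb1, Naglu, Arsa and Sgsh, against 8.09% of all genes and 12.1% of those with at least 1 CPM. At least 2 cores, a count chosen after the values had been seen, occurred in 6 of 37 members (16.2%), against 0.681% of all genes and 1.38% of those with at least 1 CPM. By class, the core was found in 4 of 8 cathepsins, 4 of 11 glycosidases, 3 of 7 membrane proteins, 1 of 3 sulfatases, 1 of 6 lipid enzymes and 0 of 2 other soluble proteins. On the list of the mannose 6-phosphate route and Sort1, 3 of the 4 genes with a window had the core. It was also found in 2 of the 13 other lysosomal genes that had a window. These shares describe letters in a window. They do not show that a factor was bound.

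**Figure D4:**
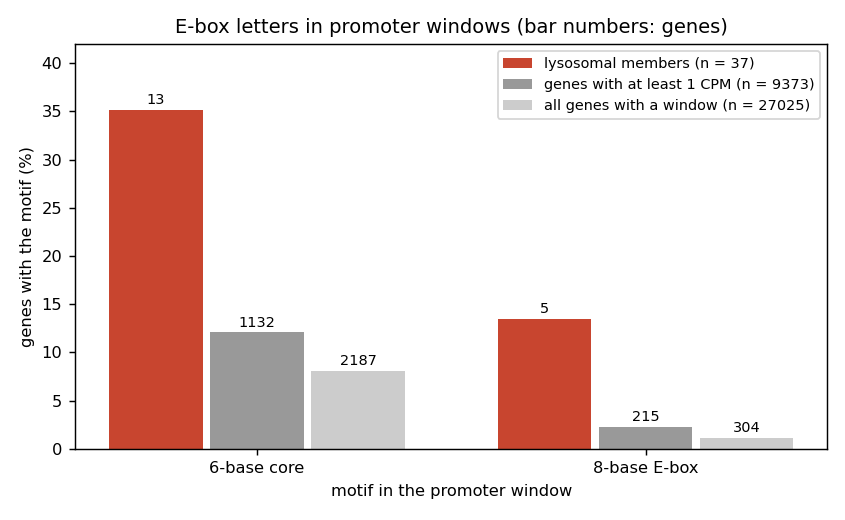
Share of genes with the E-box core or the long E-box in the promoter window (percent), for the 37 lysosomal members, the 9373 genes with at least 1 CPM and all 27025 genes with a window. Numbers over the bars count genes, and the member bars stand at 35.1% for the core and 13.5% for the long form.

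**Figure D5:**
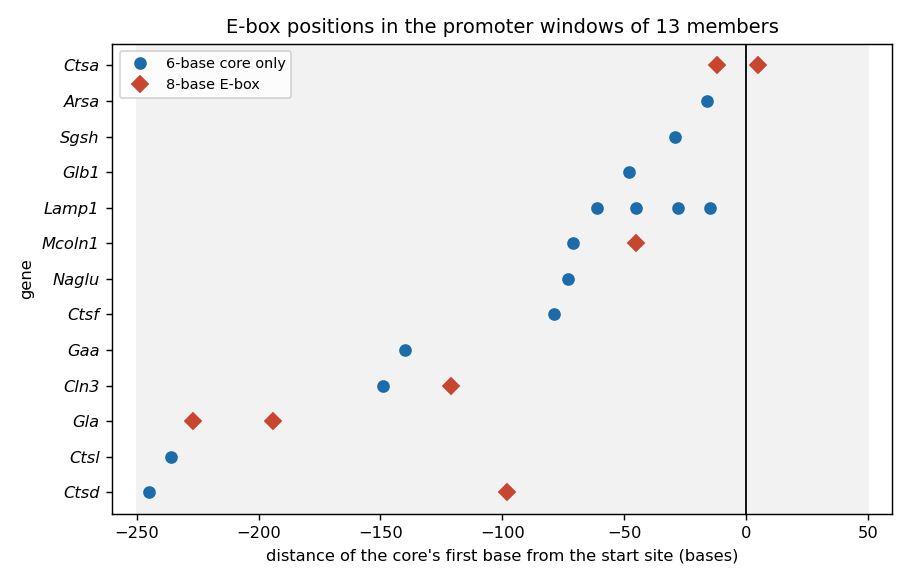
Distance of each E-box core from the RefSeq start site (bases, negative before it) in the 13 members that had one. Circles are cores alone, diamonds are the long form, and the shaded area is the window searched. Arsa, Sgsh, Glb1, Lamp1, Mcoln1 and Ctsa have matches within the last 50 bases before the start site, while those of Gla and Ctsl are near the far end.

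Members with the core did not have a higher median level than those without it, a difference that was not tested. The 13 members with it had a median of 49.9 CPM (16.6 CPM per kb) and the 24 without it had a median of 94.7 CPM (31.0 CPM per kb), and both groups spanned low and high genes. With the core were Ctsd at 1460 CPM and Lamp1 at 1003 CPM, the first and second of all members, and also Ctsf at 2.64 CPM. Without it were Psap at 543 CPM and Ctss at 0.397 CPM. The 5 members without a window, among them Ctsb at 686 CPM, were in neither group. The members were spread over 16 chromosomes, with 6 genes on chromosome 8 and 5 on chromosome 7. Besides Ctsk and Ctss, neighbours were Gaa and Sgsh, 57970 bases apart on chromosome 11, and Smpd1 and Tpp1, 186421 bases apart on chromosome 7. Per length, Gaa had 31.3 and Sgsh 2.73 CPM per kb, and Smpd1 had 11.1 and Tpp1 69.5 CPM per kb.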

How the data were processed

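RNA of B16F10 cells (3 OZO and 3 OLO libraries) was prepared with the NEBNext Ultra II Directional kit. According to the methods and the submitters' notes, the authors aligned reads to mm10 with HISAT2 (2.1.0), counted them with featureCounts (2.1.1) and analysed the counts with limma-voom (3.58.1). Strand use in counting is not given in the sources used here. From this the authors deposited mean log2 CPM values over all 6 libraries, which are the values used here. The same table holds log2 fold changes of OZO against OLO, moderated statistics, p-values, adjusted p-values and log odds. As these are the authors' own comparison, they were not used, and no comparison or test between the groups was made.

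The library size was solved from the value shared by 6025 genes without reads, given that voom adds 0.5 to each count. Transcript lengths, coordinates and exon overlaps came from GENCODE M21 (GRCm38, the assembly of mm10), where 23882 of 24126 Ensembl identifiers of the table were found. Similar transcripts were sought with minimap2 (2.31), at 90% identity over 200 bases. Tables were made with Python (3.11.15) and pandas (2.3.3). The recovery of library size, of levels and of genes without reads was tested on simulated data, and the other steps were not. Percentiles give the share of genes with reads that had a lower level. All members were named, and of each other list at least the highest and lowest genes were to be given. The other lists were other lysosomal genes, mannose 6-phosphate route with Sort1, MiT factors, cystatins and cell type markers. The members and lists were chosen with earlier results of these data known.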

Additional observations from a re-analysis of the deposited data

How the results depend on the processing

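No library values were used here, and the columns of the authors' comparison were left out by choice, so only counting error is given and the spread between cultures was not analysed here. No paired analysis was possible because the single column used is a mean over all libraries. For the same reason another normalization and leaving out each library were not run. Protein features and the coding length of RefSeq proteins were not run, since no protein table was used here.

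Ranking among genes with at least 1 CPM lowered the percentile of the median member from 86.2 to 75.5. Class medians then stood at 69.5 for cathepsins (82.9 among all genes with reads), 63.0 for glycosidases (79.2), 56.4 for sulfatases (75.5), 72.5 for lipid enzymes (84.6), 93.7 for other soluble proteins (96.5) and 95.2 for membrane proteins (97.3). Ranking among genes with a symbol moved these little, to 82.3, 78.6, 74.7 and 84.0 for the first 4 classes. Per length, the percentile of the median member was 87.1 with the longest transcript and 82.5 with the median transcript length. It was 86.5 with the union of exons, 85.5 with the longest coding transcript and 80.5 with the longest coding sequence, 3 definitions added after the data had been seen. For promoters, the share with the long E-box was 13.5% of members and 1.12% of all genes. The long E-box in the last 150 bases of the window was found in 8.11% and 0.847%, and in 2.29% of genes with at least 1 CPM over the whole window, a background added later. The core was found in 35.1% and 8.09% over the whole window and in 24.3% and 5.00% in its last 150 bases.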
